A study of Mus musculus with 14 samples.

Results

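Solute carriers are the membrane proteins, named Slc with a family number and a member number, that move nutrients, ions, vitamins and metabolites across the plasma membrane and the membranes of organelles. The genes described here are those rows of the deposited table whose symbol has the form Slc, digits, a, digits and whose mean over the 14 libraries was at least 1 RPKM, that is, reads per kilobase of gene length scaled to 1e6 reads. Of 22295 rows in the table, 336 have such a symbol, and 138 of these reached the mean of 1 RPKM. Leaving out 11 transporters by name (Slc16a3, Slc2a1, Slc7a1, Slc7a5, Slc7a6, Slc7a11, Slc3a2, Slc1a4, Slc1a5, Slc38a1 and Slc38a2), of which 10 reached that mean, gave 128 member rows for 127 distinct genes, since Slc38a9 has 2 rows over adjoining spans. The other 198 rows stayed under 1 RPKM, and 49 of them were at 0 in every library. Of the 128 members, 3 carry the family's name without being carriers: Slc4a1ap is an adaptor protein, Slc7a6os is the gene opposite Slc7a6, and Slc9a3r1 is a scaffold protein. Just inside the threshold were Slc45a4 at 1.11, Slc43a1 at 1.19 and Slc25a26 at 1.23 RPKM, and just outside were Slc5a6 at 0.899, Slc30a1 at 0.663 and Slc41a2 at 0.643 RPKM. The level chose the members, so how high they stand is a description. Slc43a1 reached the mean of 1 RPKM only through miR-155_KO, the libraries of PU.1_KI and WT together averaging 0.909 RPKM.

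The cells were mouse splenic B cells, isolated by negative selection and cultured with lipopolysaccharide (LPS, 5 µg/ml) and interleukin-4 (IL-4, 10 ng/ml) for 4 days, in all 3 genotypes alike. PU.1_KI cells (n = 5) came from mice with the genotype PU.1[155-/155-], whose PU.1 has its miR-155 site mutated. The miR-155_KO cells (n = 5) came from miR-155[-/-] mice and the WT cells (n = 4) from wild-type mice. The labels name no promoter or Cre that would limit either change to B cells, and give no ages. The series' title concerns how miR-155, a microRNA, and its target PU.1, a transcription factor, act in terminal B cell differentiation.

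Activated B cells take up amino acids, glucose, nucleosides, vitamins and metals to grow, divide and make antibody, and carriers are grouped by what they move. Amino acid carriers feed protein synthesis and, at the lysosome, signalling to the kinase mTORC1. Slc30 proteins move zinc out of the cytosol and Slc39 proteins move it in. Slc25 proteins exchange metabolites across the inner mitochondrial membrane. A microRNA lowers an mRNA mainly by pairing its seed, bases 2 to 8, with a matching site in the 3' UTR.

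The PU.1 transcript, listed as Sfpi1, was measured at 23.7 ± 2.04 RPKM in PU.1_KI and 16.7 ± 1.11 in miR-155_KO, against 11.99 ± 1.54 in WT (SD, n = 5, 5 and 4 here and for every mean below). It was called higher in both mutants (log2 fold changes 0.96 and 0.47, limma adjusted p = 5.85e-08 and 6.14e-05), where called means an adjusted p under 0.05 over all rows tested. Depth recovered from the RPKM values was 31.4 to 47.1 M reads (M for 1e6) in PU.1_KI, 38.7 to 52.5 in miR-155_KO and 35.3 to 44.1 in WT. On the first principal component of all tested genes (66.1% of the variance), miR-155_KO_5 stood at 19.8, nearer WT than the other miR-155_KO libraries at 24.2 to 27.7, and WT_1 stood at -15.4 with the other WT libraries at -18.1 or below. The 5 defining B cell markers summed to 1362 to 1595 RPKM in PU.1_KI, 1211 to 1314 in miR-155_KO and 1320 to 1522 in WT. The 4 plasma cell markers (Sdc1, Igj, Prdm1 and Xbp1) summed to 178 to 286 RPKM in PU.1_KI, 210 to 342 in miR-155_KO and 382 to 462 in WT. The sum is mostly Igj, at 132 RPKM in PU.1_KI and 153 in miR-155_KO, against 282 in WT, and Xbp1, at 106 and 107, against 134. Sdc1, the surface marker CD138, averaged 1.14 RPKM in PU.1_KI and 1.69 in miR-155_KO, against 1.43 in WT, with no call against WT. The sum was lower in both mutants beside every result below, and its part in them was not tested. The 5 macrophage markers in the table were each under 1 RPKM on average and summed to 0.385 to 0.650 RPKM in PU.1_KI, 1.09 to 1.38 in miR-155_KO and 0.417 to 0.632 in WT. Of the 5 T cell markers only Lck was tested, with the list summing to 5.71 to 7.02, 5.42 to 6.92 and 6.89 to 8.28 RPKM in PU.1_KI, miR-155_KO and WT. Of 5 neutrophil markers, 4 were at 0 in every library, as were 3 of 4 mast cell and 3 of 7 erythroid markers, and the NK cell and platelet markers were each under 1 RPKM on average. In these bulk libraries, fewer cells of a type and less RNA per cell cannot be told apart.

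Because 1 genotype lacks miR-155 and another has its site in PU.1 mutated, its mature sequence and the letters it could pair with among the members are shown. The mature strand is given by RefSeq (GRCm38.p6) at chr16:84714143-84714165, plus strand, with its seed in capitals.
mmu-miR-155-5p: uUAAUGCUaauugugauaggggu
A site of 7 bases matching the seed reads AGCATTA, and a site of 8 bases adds an A, AGCATTAA. In the longest annotated 3' UTR of each gene (GENCODE M21, build GRCm38), 13 of 127 member genes held the 7-base match (10.2%), beside 861 of 9397 tested genes with a 3' UTR (9.16%). The 8-base match was in 1 member gene, Slc12a2 (0.787%), beside 313 tested genes (3.33%). Sites of the 5 member genes called higher in miR-155_KO than in WT are shown first, with the 7-base match in capitals.
Slc37a2, chr9:37231111-37231117, minus strand: agccactttgaAGCATTAgtgctgccttt
Slc38a6, chr12:73312388-73312394, plus strand: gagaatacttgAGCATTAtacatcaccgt
Slc25a36, chr9:97075524-97075530, minus strand: atcattgtaccAGCATTAggctgtgtgta
Slc35a5, chr16:45140356-45140362, minus strand: gttattttagaAGCATTAttattttatga
Slc36a4, chr9:15738878-15738884, plus strand: accaccgtgcaAGCATTAgatagttccca
The same 7 bases stood in the 3' UTR of 4 member genes called lower in miR-155_KO, of which 3 are shown; the other is Slc39a6.
Slc16a1, chr3:104656267-104656273, plus strand: agtatttttctAGCATTAtagttgcctgg
Slc25a15, chr8:22375844-22375850, minus strand: agttgacagaaAGCATTActtctgtatgc
Slc25a32, chr15:39093556-39093562, minus strand: atagatagaacAGCATTAgcctgacagaa
The remaining member genes with the match, Slc11a2, Slc25a44, Slc39a10 and Slc12a2, were not called in miR-155_KO against WT. Across the 13, the median log2 fold change of miR-155_KO against WT was 0.04, and it was 0.07 in the 114 member genes without the match. Among all tested genes the medians were 0.13 with the 7-base match and -0.06 without it, and 46.3% of those with it were called higher, beside 25.4% of those without. The letters of these windows differ outside the capitals, and a match is a description of the letters, not of binding. Slc37a2, a sugar phosphate carrier of the endoplasmic reticulum, averaged 7.83 ± 0.425 RPKM in PU.1_KI and 12.4 ± 2.57 in miR-155_KO, against 7.97 ± 0.263 in WT (SD), and its call in miR-155_KO against WT had a log2 fold change of 0.59 ± 0.09 (SE, limma adjusted p = 2.1e-05). Its ranges were 7.23 to 8.37 RPKM in PU.1_KI, 10.6 to 16.98 in miR-155_KO and 7.72 to 8.34 in WT, so miR-155_KO stood apart above PU.1_KI and WT, which overlapped. Going the other way, Slc16a1, the lactate and pyruvate carrier MCT1, averaged 11.1 ± 0.701 RPKM in PU.1_KI and 7.79 ± 1.09 in miR-155_KO, against 11.5 ± 1.06 in WT. On the log2 scale it differed by -0.54 ± 0.08 (adjusted p = 1.12e-05).

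The 128 members spanned a wide range of levels. The highest mean over all libraries was that of Slc25a5 at 203 RPKM, the median member stood at 5.34 RPKM, 37 members had a mean of at least 10 RPKM and 21 a mean of 2 RPKM or less. The row of Slc25a5, an ADP/ATP carrier of mitochondria, averaged 215 ± 13.5 RPKM in PU.1_KI and 183 ± 15.9 in miR-155_KO, against 214 ± 10.5 in WT (SD). Slc25a3, the mitochondrial phosphate carrier, averaged 118 ± 7.59 RPKM in PU.1_KI and 108 ± 4.28 in miR-155_KO, against 111 ± 5.76 in WT. Genes of this kind can have near-identical copies between which the counting could have split reads. This was not examined here, so their levels are uncertain. Outside the mitochondrion, Slc2a6, the glucose transporter family member GLUT6, averaged 65.9 ± 4.41 RPKM in PU.1_KI and 60.6 ± 4.82 in miR-155_KO, against 62.4 ± 7.29 in WT. Slc39a7, which moves zinc out of the endoplasmic reticulum and Golgi, averaged 41.1 ± 3.45 RPKM in PU.1_KI and 35.4 ± 2.25 in miR-155_KO, against 40.2 ± 2.52 in WT. The order of these 4 genes was the same in all 3 genotypes.

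**Figure D1:**
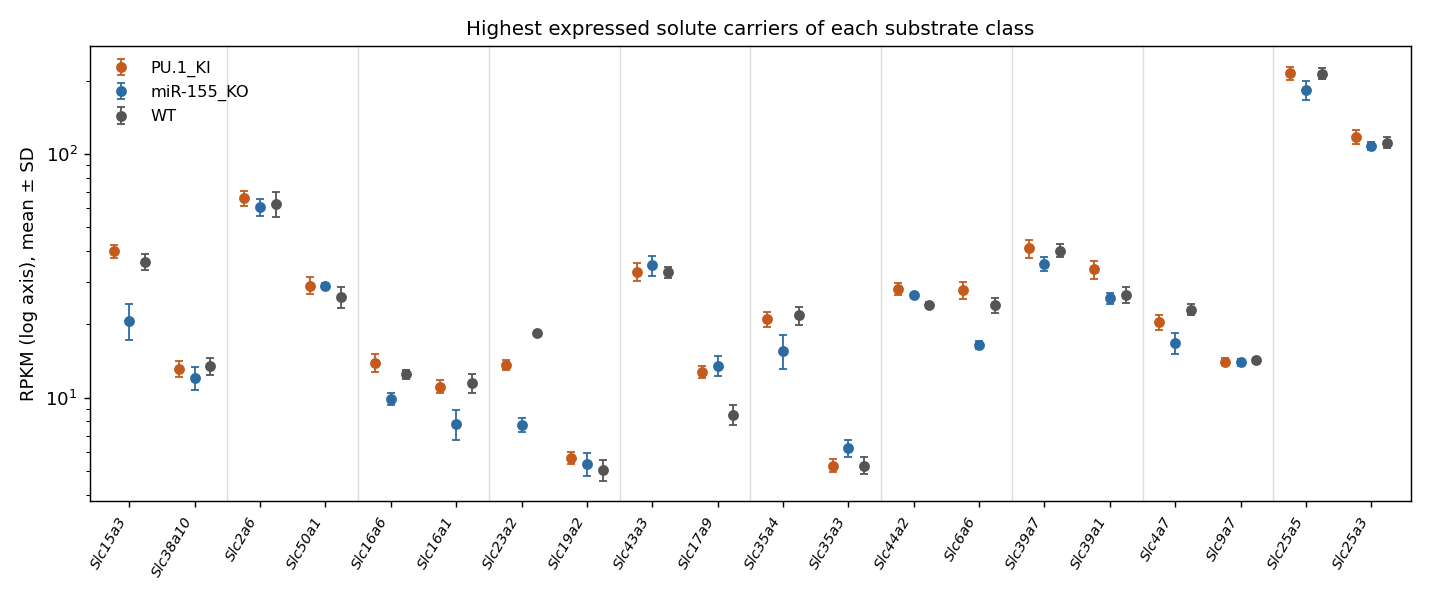
Mean RPKM ± SD (log axis) of the 2 highest expressed members of each substrate class, with PU.1_KI (n = 5), miR-155_KO (n = 5) and WT (n = 4) from left to right within each gene and classes parted by vertical lines. Slc25a5 stands highest with 203 RPKM over all libraries; Slc23a2 has its 3 genotypes apart, at 13.7 RPKM in PU.1_KI, 7.75 in miR-155_KO and 18.5 in WT.

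Each comparison was tested with limma on log2(RPKM + 0.5) over the 9627 rows with at least 1 RPKM in at least 4 libraries, with a Benjamini-Hochberg adjusted p under 0.05 over all of them. The fold changes below are on that scale, which understates changes of low genes. All 128 members were among the rows tested. In PU.1_KI against WT, 37 members (28.9%) were called higher and 5 (3.91%) lower, beside 23.7% and 4.03% of all tested rows. In miR-155_KO against WT, 45 members (35.2%) were called higher and 28 (21.9%) lower, beside 27.2% and 35.3%. In miR-155_KO against PU.1_KI, 76 members (59.4%) were called, beside 64.3% of all tested rows: 29 (22.7%) higher and 47 (36.7%) lower, beside 17.9% and 46.4%. The 5 lower calls in PU.1_KI against WT became 3 without WT_1 or without PU.1_KI_2. The shares in PU.1_KI against WT lay near those of all tested rows. Without Slc43a1 the higher calls were 44 in miR-155_KO against WT and 28 in miR-155_KO against PU.1_KI. For miR-155_KO against WT, higher calls outnumbered lower ones among the members and not among all tested rows. With a filter of 5 RPKM in place of 1, the members' median log2 fold change there was -0.003, beside -0.09 over all rows. Both mutants were compared with the same 4 WT libraries, so these comparisons are not independent of each other. The shares of all tested rows given here stand beside the counts of each substrate class and gene list below.

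Changes were mostly small. The median log2 fold change of the members was 0.11 in PU.1_KI against WT, 0.07 in miR-155_KO against WT and -0.08 in miR-155_KO against PU.1_KI, beside 0.08, -0.05 and -0.13 over all tested rows. A call with a change of at least 1.5-fold was made for 4 members higher and 0 lower in PU.1_KI against WT (2.22% and 0.499% of all tested rows), the lowest member there being Slc23a2 at -0.42. It was made for 10 higher and 7 lower in miR-155_KO against WT (7.57% and 5.73%), and for 19 members (9.88% of all tested rows), 11 higher and 8 lower, in miR-155_KO against PU.1_KI (4.29% and 5.59%). Leaving out Slc43a1, the 11 became 10. Every library of the first genotype lay above every library of the second for 30 members in PU.1_KI against WT, 39 in miR-155_KO against WT and 17 in miR-155_KO against PU.1_KI, beside 18.4%, 23.5% and 13.4% of all tested rows. It lay below for 4, 20 and 31 members, beside 3.76%, 24.9% and 29.7%. Deposited RPKM were not rescaled. With median-of-ratios scaling the median of all tested rows in miR-155_KO against PU.1_KI moved to 0.00. The calls became 31 higher and 20 lower in PU.1_KI against WT (17.4% and 15.8% of all tested rows), 61 and 26 in miR-155_KO against WT (34.1% and 34%), and 49 and 35 in miR-155_KO against PU.1_KI (31.5% and 31.3%). The surplus of lower calls in miR-155_KO against PU.1_KI therefore did not hold under that scaling. Where a substrate class below has a count of 0 by limma, the count at an unadjusted p under 0.05 was 0 as well, except for 1 nucleotide sugar carrier, Slc35a2, higher in PU.1_KI against WT.

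**Figure D2:**
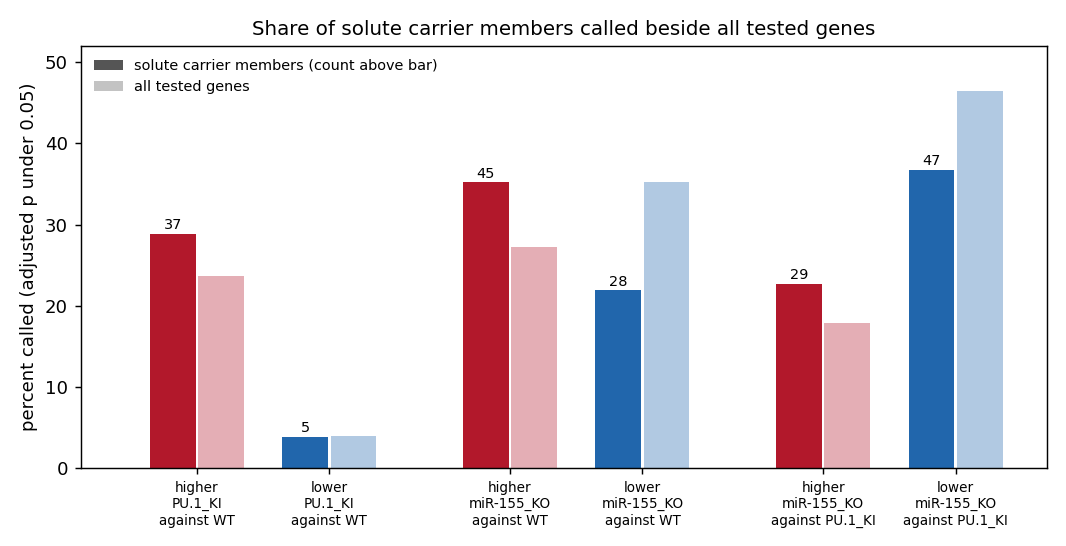
Percent of the 128 solute carrier members (dark bars, with the count above) and of all 9627 tested rows (pale bars) called higher or lower at an adjusted p under 0.05 in each comparison. In miR-155_KO against WT, 35.2% of the members and 27.2% of all rows were called higher, and 21.9% and 35.3% lower.

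**Figure D3:**
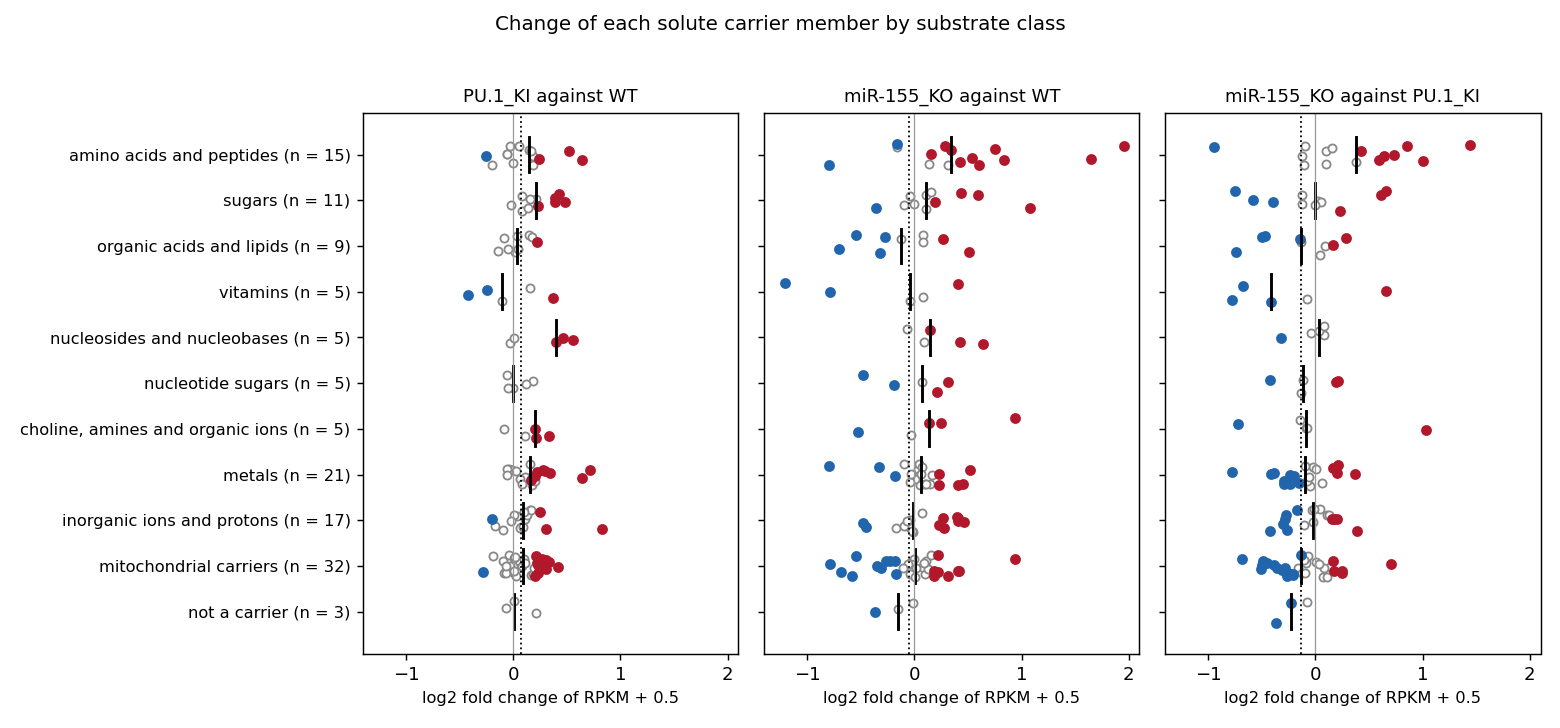
Log2 fold change of each member (a point; filled where called, red for higher and blue for lower, open where not called) by substrate class in the 3 comparisons, with the class median as a vertical tick and the median of all tested rows as a dotted line. Amino acid and peptide carriers lie furthest right in miR-155_KO, with a median of 0.34 against WT, and vitamin carriers include Slc23a2 at -1.21.

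Carriers of amino acids and peptides had many calls in miR-155_KO. Of 15 rows in this class, 10 were called higher and 2 lower in miR-155_KO against WT, and 7 higher and 1 lower against PU.1_KI. In PU.1_KI against WT 3 were called higher and 1 lower. Medians were 0.34, 0.38 and 0.14. The shares of all tested rows, in the same order, were 27.2% and 35.3%, 17.9% and 46.4%, and 23.7% and 4.03%. Leaving out Slc43a1, which had to be high in miR-155_KO to be a member, the higher calls were 9 in miR-155_KO against WT and 6 against PU.1_KI. With median-of-ratios scaling the counts were 11 and 2, 9 and 1, and 3 and 2. Amino acid carriers among the genes left out by name are not counted in this class.

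Slc6a9 encodes GlyT1, a sodium-coupled glycine transporter (ENSMUSG00000028542, chromosome 4 from 117507111 to 117541910 on the plus strand, build NCBIM37). It was measured at 2.02, 2.20, 2.69, 3.40 and 2.54 RPKM in the PU.1_KI libraries and 7.70, 7.67, 8.24, 7.44 and 7.63 in the miR-155_KO libraries. WT libraries had 1.57, 1.69, 1.59 and 1.64 RPKM. The 3 genotypes did not overlap, with miR-155_KO highest and PU.1_KI between. Its log2 fold change was 1.96 ± 0.09 in miR-155_KO against WT (SE, limma adjusted p = 7.24e-13), 1.44 ± 0.08 in miR-155_KO against PU.1_KI (adjusted p = 3.71e-11) and 0.52 ± 0.09 in PU.1_KI against WT (adjusted p = 0.000239), the largest absolute change of any member in the first 2 of these comparisons. Ccdc24, whose span overlaps that of Slc6a9 on the other strand, averaged under 0.1 RPKM in each genotype.

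Slc7a3 encodes CAT3, a carrier of arginine, lysine and ornithine (ENSMUSG00000031297, chromosome X from 98274560 to 98281359 on the minus strand). Its values were 7.402, 6.91, 7.36, 9.59 and 7.64 RPKM in the PU.1_KI libraries and 16.1, 16.2, 16.2, 15.6 and 15.9 in the miR-155_KO libraries. WT libraries had 4.55, 4.56, 4.84 and 5.18 RPKM. Again all 3 genotypes were apart and in the same order. The log2 fold changes were 1.64 ± 0.07 in miR-155_KO against WT, 1.00 ± 0.07 in miR-155_KO against PU.1_KI and 0.64 ± 0.07 in PU.1_KI against WT (limma adjusted p = 4.16e-13, 2.68e-10 and 1.63e-06). Slc7a7, the y+LAT1 light chain that exchanges cationic for neutral amino acids, was measured at 2.49, 3.06, 3.24, 3.48 and 3.13 RPKM in the PU.1_KI libraries and 4.77, 4.77, 5.03, 4.72 and 5.07 in the miR-155_KO libraries. WT libraries had 2.55, 2.56, 2.72 and 2.90 RPKM. Here miR-155_KO stood above PU.1_KI and WT, which overlapped. Fold change on the log2 scale was 0.76 ± 0.07 in miR-155_KO against WT (adjusted p = 2.05e-08). The span of Slc7a7 overlaps Oxa1l on the other strand, itself called higher in both mutants (log2 fold changes 0.36 in PU.1_KI and 0.50 in miR-155_KO, each against WT). Whether counting used strand is not known here.

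Slc43a2 and Slc43a1 carry large neutral amino acids such as leucine without sodium. Slc43a2 (chromosome 11 from 75345196 to 75391077 on the plus strand) was measured at 4.74, 4.91, 5.49, 5.58 and 5.35 RPKM in the PU.1_KI libraries and 10.1, 9.85, 9.52, 9.41 and 10.4 in the miR-155_KO libraries. WT libraries had 5.82, 6.46, 6.58 and 6.43 RPKM. It was highest in miR-155_KO and lowest in PU.1_KI, with no overlap between genotypes. Its calls went in opposite directions in the mutants: 0.60 ± 0.06 in miR-155_KO against WT (adjusted p = 4.01e-08) and -0.26 ± 0.06 in PU.1_KI against WT (adjusted p = 0.00259). Slc43a1 averaged 0.822 ± 0.0550 RPKM in PU.1_KI and 1.70 ± 0.245 in miR-155_KO, against 1.02 ± 0.0963 in WT. Its miR-155_KO level brought it over the threshold, so its log2 fold changes of 0.73 in miR-155_KO against PU.1_KI and 0.53 in miR-155_KO against WT are a description. In PU.1_KI against WT it was not called (-0.20, adjusted p = 0.0647).

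Lysosomal carriers of the class went both ways. Slc38a7, which exports glutamine from the lysosome (chromosome 8 from 98359820 to 98377439 on the minus strand), was measured at 1.84, 2.13, 2.71, 2.81 and 2.37 RPKM in the PU.1_KI libraries and 4.01, 4.03, 4.18, 3.39 and 4.09 in the miR-155_KO libraries. WT libraries had 2.07, 1.76, 2.02 and 2.09 RPKM. All miR-155_KO libraries were above all others, and PU.1_KI overlapped WT. The log2 fold change was 0.84 ± 0.09 in miR-155_KO against WT and 0.64 ± 0.08 against PU.1_KI (adjusted p = 1.44e-07 and 2.55e-06). Slc15a3, a carrier of histidine and small peptides in lysosomal membranes and the highest member of its class (chromosome 19 from 10917034 to 10932405 on the plus strand), was measured at 36.7, 38.4, 40.9, 43.2 and 40.8 RPKM in the PU.1_KI libraries and 19.6, 19.5, 19.5, 18.2 and 26.9 in the miR-155_KO libraries. WT libraries had 32.0, 37.8, 37.2 and 37.7 RPKM. All miR-155_KO libraries were below all others, with PU.1_KI and WT overlapping. Its change on the log2 scale was -0.80 ± 0.09 against WT and -0.94 ± 0.08 against PU.1_KI (adjusted p = 3.14e-07 and 1.83e-08). Its relative Slc15a4 averaged 11.8 RPKM in PU.1_KI and 11.005 in miR-155_KO, against 9.95 in WT, and was called higher in PU.1_KI against WT (0.24, adjusted p = 0.00572) but not with quantile normalization (0.0542); it was not called in miR-155_KO (adjusted p = 0.052). The row covering most of Slc38a9, part of the lysosomal arginine sensing of mTORC1, averaged 4.30 RPKM in PU.1_KI and 4.86 in miR-155_KO, against 3.72 in WT. It was called higher in miR-155_KO against WT (0.34). The other row of Slc38a9, counted in this class too, was also called higher there. That call was lost with quantile normalization (adjusted p = 0.168) and without WT_4, miR-155_KO_3 or miR-155_KO_4. Slc38a10, the next highest of the class, averaged 13.2 RPKM in PU.1_KI and 12.03 in miR-155_KO, against 13.5 in WT, with no call in any comparison.

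Sugar and sugar phosphate carriers had mostly higher calls in PU.1_KI against WT, as had all tested rows (23.7% higher and 4.03% lower). Of 11 members, 5 were called higher and 0 lower in PU.1_KI against WT (median 0.21; 5 higher and 0 lower also with median-of-ratios scaling), 4 higher and 1 lower in miR-155_KO against WT, and 3 and 3 in miR-155_KO against PU.1_KI. The highest members, Slc2a6 and Slc50a1, a SWEET family sugar carrier, were not called in any comparison. Slc50a1 averaged 28.9 ± 2.30 RPKM in PU.1_KI and 28.8 ± 0.653 in miR-155_KO, against 25.9 ± 2.64 in WT. Slc2a3, the glucose transporter GLUT3 (chromosome 6 from 122677827 to 122751658 on the minus strand), was measured at 6.73, 6.98, 6.81, 7.28 and 6.99 RPKM in the PU.1_KI libraries and 3.82, 3.50, 3.96, 4.00 and 4.49 in the miR-155_KO libraries. WT libraries had 4.69, 4.73, 5.41 and 6.03 RPKM. It was highest in PU.1_KI and lowest in miR-155_KO, without overlap between any genotypes. It was called higher in PU.1_KI against WT (0.39 ± 0.07, adjusted p = 0.000405) and lower in miR-155_KO against WT (-0.36 ± 0.07, adjusted p = 0.000244).

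Slc5a3, the sodium-coupled carrier of the osmolyte myo-inositol (chromosome 16 from 92058567 to 92087718 on the plus strand), was measured at 1.74, 1.41, 1.61, 1.45 and 1.86 RPKM in the PU.1_KI libraries and 3.05, 2.64, 3.09, 3.02 and 2.36 in the miR-155_KO libraries. WT libraries had 1.17, 1.03, 1.07 and 1.02 RPKM. The genotypes were apart, with miR-155_KO highest and WT lowest, and log2 fold changes of 1.08 ± 0.08 in miR-155_KO against WT, 0.65 ± 0.07 in miR-155_KO against PU.1_KI and 0.42 ± 0.08 in PU.1_KI against WT (adjusted p = 7.5e-10, 4.07e-07 and 0.000468). Its span lies within that of Mrps6 on the same strand, so reads of Mrps6 could be shared with it. Mrps6 changed less, by 0.24, -0.16 and 0.40 in the same comparisons, with the difference between the mutants going the other way. Slc37a4, which brings glucose 6-phosphate into the endoplasmic reticulum, averaged 2.68 ± 0.132 RPKM in PU.1_KI and 1.62 ± 0.0702 in miR-155_KO, against 1.77 ± 0.127 in WT. On the log2 scale it differed by 0.48 ± 0.06 in PU.1_KI against WT (adjusted p = 3.5e-06) and -0.10 in miR-155_KO against WT, not called (adjusted p = 0.14). Slc45a4, just inside the threshold, averaged 1.13 RPKM in PU.1_KI and 1.19 in miR-155_KO, against 0.981 in WT. Its call in miR-155_KO against WT (0.20, adjusted p = 0.0309) was lost without WT_1, WT_4, miR-155_KO_2 or miR-155_KO_5 (adjusted p = 0.0967, 0.102, 0.0645 and 0.0652) and with quantile normalization (0.579).

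Of 9 carriers of organic acids and lipids, 4 were called lower and 2 higher in miR-155_KO against WT, 4 lower and 2 higher in miR-155_KO against PU.1_KI, and 1 higher and 0 lower in PU.1_KI against WT, where median-of-ratios scaling gave 0 higher and 2 lower. The Slc16 family of monocarboxylate carriers supplied 3 of the lower calls. Beside Slc16a1, already described, Slc16a6 averaged 13.9 ± 1.13 RPKM in PU.1_KI and 9.92 ± 0.540 in miR-155_KO, against 12.5 ± 0.515 in WT, with a log2 fold change of -0.32 ± 0.06 in miR-155_KO against WT (adjusted p = 0.000202). Slc16a13 averaged 2.94 ± 0.429 RPKM in PU.1_KI and 1.55 ± 0.261 in miR-155_KO, against 2.84 ± 0.326 in WT, with -0.71 ± 0.10 (adjusted p = 5.54e-06). For none of the 3 was a call made in PU.1_KI against WT. Fold changes on the log2 scale were -0.05, 0.15 and 0.04 for Slc16a1, Slc16a6 and Slc16a13, with adjusted p of 0.713, 0.0864 and 0.815. Amz2, which overlaps Slc16a6 on the other strand, went the other way in miR-155_KO (0.37). Basigin and embigin, the proteins that several Slc16 carriers need to reach the plasma membrane, were also lower in miR-155_KO: Bsg averaged 67.0 RPKM in PU.1_KI and 38.7 in miR-155_KO, against 62.3 in WT (log2 fold change -0.69 in miR-155_KO against WT, adjusted p = 1.37e-06). Emb averaged 11.3 RPKM in PU.1_KI and 8.99 in miR-155_KO, against 13.98 in WT (-0.60, adjusted p = 1.08e-06). Ldha, the lactate dehydrogenase subunit that makes lactate, averaged 293 RPKM in PU.1_KI and 114 in miR-155_KO, against 271 in WT (-1.26, adjusted p = 1.75e-09). Of the 5 tested genes in the list for monocarboxylates and pyruvate, 4 were called lower in miR-155_KO against WT and 1 in PU.1_KI against WT. All tested rows had 27.2% higher and 35.3% lower in miR-155_KO against WT, and 23.7% and 4.03% in PU.1_KI against WT. They had 17.9% and 46.4% in miR-155_KO against PU.1_KI. Slc17a5, which exports sialic acid from lysosomes, was the member of this class with the largest higher call in miR-155_KO, at 2.95 RPKM in PU.1_KI and 3.71 in miR-155_KO, against 2.45 in WT (0.51, adjusted p = 4.16e-07).

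The vitamin carriers were few, and the ascorbate carrier Slc23a2 and the folate carrier Slc19a1 had large lower calls in miR-155_KO. Of 5 members, 2 were called lower and 1 higher in miR-155_KO against WT, 3 lower and 1 higher in miR-155_KO against PU.1_KI, and 2 lower and 1 higher in PU.1_KI against WT. Shares of all tested rows, lower and higher in that order, were 35.3% and 27.2%, 46.4% and 17.9%, and 4.03% and 23.7%. Slc23a2, the ascorbate (vitamin C) transporter SVCT2 (ENSMUSG00000027340, chromosome 2 from 131878232 to 131970844 on the minus strand), was measured at 12.7, 14.5, 13.7, 13.9 and 13.7 RPKM in the PU.1_KI libraries and 7.61, 7.41, 7.57, 7.53 and 8.65 in the miR-155_KO libraries. WT libraries had 18.2, 18.4, 18.6 and 18.8 RPKM. The genotypes did not overlap: WT was highest, PU.1_KI between and miR-155_KO lowest. The log2 fold change was -1.21 ± 0.05 in miR-155_KO against WT, -0.78 ± 0.05 in miR-155_KO against PU.1_KI and -0.42 ± 0.05 in PU.1_KI against WT (adjusted p = 7.01e-13, 2.07e-10 and 9.2e-06). Its relative Slc23a1, SVCT1, was much lower, at 1.42 ± 0.122 RPKM in PU.1_KI and 2.52 ± 0.237 in miR-155_KO, against 1.78 ± 0.246 in WT. It was called higher in miR-155_KO against WT (0.41 ± 0.08, adjusted p = 0.000163) and lower in PU.1_KI against WT (-0.25 ± 0.08, adjusted p = 0.0228). The second call was lost without PU.1_KI_2, WT_1 or WT_3 (adjusted p = 0.0625, 0.109 and 0.0512) and with no filter on low values (0.0507). Paip2, an abundant gene that overlaps Slc23a1 on the other strand, was not called in any comparison.

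Slc19a1, the reduced folate carrier (chromosome 10 from 76494986 to 76523747 on the plus strand), was measured at 3.97, 4.12, 4.94, 5.08 and 4.21 RPKM in the PU.1_KI libraries and 2.68, 2.66, 2.38, 2.103 and 3.22 in the miR-155_KO libraries. WT libraries had 4.13, 5.05, 4.95 and 5.18 RPKM. All miR-155_KO libraries were below all others and PU.1_KI overlapped WT. On the log2 scale the changes were -0.78 ± 0.09 in miR-155_KO against WT and -0.68 ± 0.09 in miR-155_KO against PU.1_KI (adjusted p = 6.92e-07 and 2.29e-06). The mitochondrial folate carrier Slc25a32 (chromosome 15 from 38925737 to 38944262 on the minus strand) was measured at 3.02, 3.10, 2.94, 3.60 and 3.37 RPKM in the PU.1_KI libraries and 1.88, 1.86, 2.39, 2.01 and 2.41 in the miR-155_KO libraries. WT libraries had 3.78, 4.09, 3.82 and 4.30 RPKM. It was apart in all 3 genotypes, highest in WT. The log2 fold changes were -0.79 ± 0.07 in miR-155_KO against WT and -0.28 ± 0.07 in PU.1_KI against WT (adjusted p = 3.14e-08 and 0.00849). Among the enzymes that use folate, 4 of 6 tested were called lower and 2 higher in miR-155_KO against WT: the cytosolic Shmt1 averaged 12.9 RPKM in PU.1_KI and 7.38 in miR-155_KO, against 15.2 in WT (-1.02). Gart, of purine synthesis, averaged 20.7 RPKM in PU.1_KI and 13.1 in miR-155_KO, against 22.5 in WT (-0.78). The mitochondrial Mthfd2 averaged 34.5 RPKM in PU.1_KI and 52.8 in miR-155_KO, against 26.2 in WT (1.00). In PU.1_KI against WT, 1 of the 6 was called higher and 1 lower. All tested rows had 27.2% higher and 35.3% lower in miR-155_KO against WT, and 23.7% and 4.03% in PU.1_KI against WT. Slc19a2, a thiamine carrier, averaged 5.68 ± 0.317 RPKM in PU.1_KI and 5.38 ± 0.589 in miR-155_KO, against 5.06 ± 0.488 in WT, and was not called in any comparison.

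Nucleoside and nucleobase carriers had higher calls in both mutants. All tested rows had 23.7% higher and 4.03% lower in PU.1_KI against WT, and 27.2% and 35.3% in miR-155_KO against WT. Of 5 members, 3 were called higher and 0 lower in PU.1_KI against WT (median 0.40) and 3 higher and 0 lower in miR-155_KO against WT (median 0.15). There were 0 called higher and 1 lower between miR-155_KO and PU.1_KI, a count that became 3 and 1 with median-of-ratios scaling. Slc17a9, the vesicular nucleotide transporter, averaged 12.8 ± 0.744 RPKM in PU.1_KI and 13.5 ± 1.24 in miR-155_KO, against 8.51 ± 0.798 in WT. Log2 fold changes stood at 0.56 ± 0.07 in PU.1_KI and 0.64 ± 0.07 in miR-155_KO, each against WT (adjusted p = 1.11e-05 and 3.93e-07). Every library of both mutants lay above every WT library, with ranges of 11.95 to 13.6 RPKM in PU.1_KI, 11.4 to 14.4 in miR-155_KO and 7.66 to 9.25 in WT. Slc29a3, the lysosomal equilibrative nucleoside transporter ENT3, averaged 8.40 ± 0.773 RPKM in PU.1_KI and 8.56 ± 0.265 in miR-155_KO, against 6.25 ± 0.375 in WT (0.40 in PU.1_KI and 0.43 in miR-155_KO, adjusted p = 9.03e-05 and 8.13e-06), while its plasma membrane relative Slc29a1, ENT1, averaged 6.82 RPKM in PU.1_KI and 6.64 in miR-155_KO, against 6.98 in WT, with no call. Slc28a2, the sodium-coupled purine nucleoside transporter CNT2, averaged 8.55 ± 0.450 RPKM in PU.1_KI and 6.77 ± 0.518 in miR-155_KO, against 6.07 ± 0.441 in WT. PU.1_KI was called higher than WT (0.46 ± 0.06, adjusted p = 1.74e-05). Its smaller call in miR-155_KO against WT (0.15, adjusted p = 0.0495) was lost without WT_1, WT_2, WT_4, miR-155_KO_1, miR-155_KO_3 or miR-155_KO_4 (adjusted p between 0.0644 and 0.168), and the 2 groups overlapped. Slc43a3, a purine nucleobase carrier and the highest of the class, averaged 32.9 ± 2.72 RPKM in PU.1_KI and 34.99 ± 3.34 in miR-155_KO, against 32.8 ± 1.69 in WT, with no call in any comparison. The enzymes that salvage nucleosides went the other way in miR-155_KO, with 7 of 9 tested rows lower and 1 higher against WT. Dck averaged 14.2 RPKM in PU.1_KI and 8.24 in miR-155_KO, against 12.2 in WT (-0.54). Pnp averaged 13.4 RPKM in PU.1_KI and 7.98 in miR-155_KO, against 11.99 in WT (-0.56). Hprt averaged 63.3 RPKM in PU.1_KI and 43.2 in miR-155_KO, against 63.7 in WT (-0.56). In PU.1_KI against WT, 2 of the 9 were called, both higher.

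Of the 5 nucleotide sugar carriers, which supply the Golgi with sugars for glycosylation, 0 were called in either direction in PU.1_KI against WT, with adjusted p between 0.109 and 0.993, and 0 also with median-of-ratios scaling. Against WT, miR-155_KO had 2 called higher and 2 lower, and against PU.1_KI 2 higher and 1 lower. All tested rows had 27.2% and 35.3% against WT, and 17.9% and 46.4% against PU.1_KI. In PU.1_KI against WT they had 23.7% higher and 4.03% lower. Slc35a4, the highest of the class, averaged 21.01 ± 1.44 RPKM in PU.1_KI and 15.6 ± 2.49 in miR-155_KO, against 21.8 ± 1.85 in WT, and was called lower (-0.48 ± 0.09, adjusted p = 0.000117). Slc35a3, which carries UDP-N-acetylglucosamine, averaged 5.28 ± 0.334 RPKM in PU.1_KI and 6.20 ± 0.488 in miR-155_KO, against 5.28 ± 0.419 in WT, and was called higher (0.21 ± 0.07, adjusted p = 0.00833). Hiat1 overlaps it on the same strand and was not called.

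Carriers of choline, amines and other organic ions differed among themselves. Slc44a1, the choline transporter-like protein CTL1 (chromosome 4 from 53453285 to 53635350 on the plus strand), was measured at 1.47, 1.62, 1.65, 1.93 and 1.75 RPKM in the PU.1_KI libraries and 3.85, 3.40, 4.34, 4.32 and 3.90 in the miR-155_KO libraries. WT libraries had 1.71, 1.81, 1.83 and 1.92 RPKM. All miR-155_KO libraries were above all others, and PU.1_KI and WT overlapped. Fold change on the log2 scale was 0.94 ± 0.07 in miR-155_KO against WT and 1.03 ± 0.07 in miR-155_KO against PU.1_KI (adjusted p = 1.53e-09 and 2.05e-10). Slc44a2, its more abundant relative, averaged 28.05 ± 1.55 RPKM in PU.1_KI and 26.5 ± 0.544 in miR-155_KO, against 24.1 ± 0.559 in WT. It was called higher in PU.1_KI against WT (0.22 ± 0.05, adjusted p = 0.00374). Its call in miR-155_KO against WT (0.13, adjusted p = 0.0282) was lost without WT_1, WT_2, WT_3 or miR-155_KO_4 (adjusted p = 0.0642, 0.0673, 0.0571 and 0.0515). Slc6a6, the taurine transporter, averaged 27.7 ± 2.13 RPKM in PU.1_KI and 16.5 ± 0.628 in miR-155_KO, against 23.99 ± 1.69 in WT. It was called lower in miR-155_KO against WT (-0.52 ± 0.06, adjusted p = 7.78e-07). Its call in the other direction in PU.1_KI against WT (0.20 ± 0.06, adjusted p = 0.0219) was lost without PU.1_KI_4, PU.1_KI_5, WT_1 or WT_2 (adjusted p = 0.0581, 0.0523, 0.0852 and 0.0704), and these groups overlapped. Slc14a1, a urea transporter, averaged 8.46 RPKM in PU.1_KI and 7.92 in miR-155_KO, against 6.60 in WT, and was called higher in both mutants against WT (0.33 in PU.1_KI and 0.25 in miR-155_KO). In the class of 5, 3 were called higher and 0 lower in PU.1_KI against WT, and 3 higher and 1 lower in miR-155_KO against WT. Over all tested rows the shares were 23.7% and 4.03% in the first comparison and 27.2% and 35.3% in the second. Of the 4 tested enzymes that build phosphatidylcholine from choline, 2 were called, both higher, in PU.1_KI against WT and 1 each way in miR-155_KO against WT.

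Metal carriers were called higher in PU.1_KI against WT in 8 of 21 members and lower in 0 (median 0.16). The shares of all tested rows were 23.7% and 4.03%. With median-of-ratios scaling the counts of metal carriers were 6 and 2. For miR-155_KO against WT the counts were 5 higher and 3 lower. For miR-155_KO against PU.1_KI they were 4 higher and 10 lower, which became 5 and 6 with median-of-ratios scaling. Slc30a4, the zinc exporter ZnT4 of vesicles, averaged 33.4 ± 2.62 RPKM in PU.1_KI and 28.96 ± 1.75 in miR-155_KO, against 20.1 ± 1.18 in WT, with ranges of 29.6 to 36.3 in PU.1_KI, 27.3 to 31.2 in miR-155_KO and 19.1 to 21.6 in WT. Both mutants were above WT without overlap. Fold changes on the log2 scale were 0.71 ± 0.07 in PU.1_KI and 0.52 ± 0.07 in miR-155_KO (adjusted p = 1.35e-07 and 1.36e-06). Of the 5 Slc30 members, which move zinc out of the cytosol, and the 11 Slc39 members, which move it in, 2 and 3 were called higher in PU.1_KI against WT and 0 of either was called lower. The Slc39 count was 1 without PU.1_KI_3, PU.1_KI_4, WT_1 or WT_4, and with median-of-ratios scaling or quantile normalization 1 was higher and 1 lower. The Slc30 count stayed at 2 whichever library was left out, with 1 lower under those scalings. For the whole class the 8 became 5 without PU.1_KI_3, PU.1_KI_4 or WT_1. Slc39a1, a zinc importer of the plasma membrane, averaged 33.7 ± 2.87 RPKM in PU.1_KI and 25.6 ± 1.27 in miR-155_KO, against 26.4 ± 2.02 in WT (0.34 ± 0.07 in PU.1_KI against WT, adjusted p = 0.000836; -0.04 in miR-155_KO, not called).

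Slc39a6, the zinc importer LIV-1 (chromosome 18 from 24738382 to 24762318 on the minus strand), was measured at 11.98, 12.9, 13.01, 13.9 and 12.9 RPKM in the PU.1_KI libraries and 6.91, 7.14, 7.03, 7.44 and 8.30 in the miR-155_KO libraries. WT libraries had 13.01, 12.8, 12.2 and 14.4 RPKM. All miR-155_KO libraries were below all others, and PU.1_KI overlapped WT. On the log2 scale the changes were -0.79 ± 0.06 against WT and -0.78 ± 0.06 against PU.1_KI (adjusted p = 2.59e-09 and 1.8e-09). The call of Slc39a7 as lower in miR-155_KO against WT (-0.18, adjusted p = 0.026) was lost without WT_2, WT_3, WT_4, miR-155_KO_1, miR-155_KO_3 or miR-155_KO_4 (adjusted p between 0.0522 and 0.0771). Quantile normalization lost it too, at -0.05 (adjusted p = 0.245). The copper family Slc31 had both of its members called higher in PU.1_KI against WT: Slc31a1, the high-affinity copper importer CTR1, averaged 16.9 ± 0.714 RPKM in PU.1_KI and 13.7 ± 0.589 in miR-155_KO, against 13.7 ± 0.955 in WT (0.29 ± 0.06, adjusted p = 0.000638). Slc31a2, a related protein of endosomes and lysosomes, averaged 34.4 ± 2.04 RPKM in PU.1_KI and 25.8 ± 1.66 in miR-155_KO, against 21.97 ± 2.73 in WT (0.64 ± 0.08, adjusted p = 3.04e-06). In miR-155_KO against WT, Slc31a1 was not called (0.00), and the call of Slc31a2 (0.23, adjusted p = 0.0114) was lost without WT_1 (adjusted p = 0.0596). Metallothioneins, small proteins that bind zinc and copper, were low but called higher in PU.1_KI and lower in miR-155_KO against WT: Mt1 averaged 2.82 RPKM in PU.1_KI and 1.27 in miR-155_KO, against 1.74 in WT (0.55 and -0.34). Mt2 averaged 1.44 RPKM in PU.1_KI and 0.378 in miR-155_KO, against 0.693 in WT (0.67 and -0.45). In the zinc and copper list, 3 of 5 tested genes were called, all higher, in PU.1_KI against WT. In miR-155_KO against WT 1 was called higher and 4 lower. The shares of all tested rows were 23.7% higher and 4.03% lower in the first comparison and 27.2% and 35.3% in the second.

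Slc48a1, which moves heme out of endosomes and lysosomes, averaged 12.9 ± 1.14 RPKM in PU.1_KI and 16.8 ± 0.690 in miR-155_KO, against 12.2 ± 0.504 in WT. Its miR-155_KO level was called higher than WT (0.45 ± 0.06, adjusted p = 4.01e-06). The iron importer DMT1, Slc11a2, averaged 2.65 RPKM in PU.1_KI and 2.17 in miR-155_KO, against 2.36 in WT, without a call against WT. Genes that handle iron beside these carriers moved apart in miR-155_KO: the transferrin receptor Tfrc averaged 13.6 RPKM in PU.1_KI and 6.21 in miR-155_KO, against 17.2 in WT (-1.41 in miR-155_KO against WT, adjusted p = 2.66e-11). The ferritin chains went the other way: Fth1 averaged 291 RPKM in PU.1_KI and 447 in miR-155_KO, against 239 in WT (0.90, adjusted p = 9.89e-10). Ftl1 averaged 139 RPKM in PU.1_KI and 224 in miR-155_KO, against 123 in WT (0.86, adjusted p = 2.26e-05). Heme oxygenase Hmox1 averaged 2.65 RPKM in PU.1_KI and 5.30 in miR-155_KO, against 2.42 in WT (0.99, adjusted p = 2.04e-07). Of the 7 tested genes in the iron and heme list, 3 were called higher and 3 lower in miR-155_KO against WT. In PU.1_KI against WT 2 were called higher and 1 lower. Shares over all tested rows were 27.2% higher and 35.3% lower in the first comparison and 23.7% and 4.03% in the second.

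Carriers of inorganic ions and protons included the member with the largest change in PU.1_KI. Slc12a9, a member of the cation-chloride cotransporter family (ENSMUSG00000037344, chromosome 5 from 137755786 to 137774825 on the minus strand), was measured at 8.66, 8.56, 9.97, 10.4 and 9.02 RPKM in the PU.1_KI libraries and 7.19, 6.95, 6.90, 5.88 and 7.16 in the miR-155_KO libraries. WT libraries had 4.38, 5.70, 5.35 and 4.77 RPKM. All 3 genotypes were apart, with PU.1_KI highest and WT lowest, and log2 fold changes of 0.83 ± 0.08 in PU.1_KI against WT, 0.40 ± 0.08 in miR-155_KO against WT and -0.42 ± 0.07 in miR-155_KO against PU.1_KI (adjusted p = 2.08e-07, 0.000189 and 6.07e-05). Of 17 members, 3 were called higher and 1 lower in PU.1_KI against WT, beside 23.7% and 4.03% of all tested rows. The counts of members became 3 and 3 with median-of-ratios scaling. Against WT, miR-155_KO had 7 called higher and 2 lower, and against PU.1_KI 4 higher and 6 lower (8 and 4 with that scaling). Slc4a7, a sodium bicarbonate cotransporter and the highest of the class, averaged 20.5 ± 1.47 RPKM in PU.1_KI and 16.8 ± 1.71 in miR-155_KO, against 23.01 ± 1.17 in WT (-0.45 ± 0.07 in miR-155_KO against WT, adjusted p = 2.17e-05). Slc9a7, a sodium/proton exchanger of the Golgi, averaged 14.1 ± 0.435 RPKM in PU.1_KI and 13.99 ± 0.479 in miR-155_KO, against 14.2 ± 0.361 in WT, with no call in any comparison. The potassium-chloride cotransporter Slc12a4 averaged 4.19 RPKM in PU.1_KI and 5.64 in miR-155_KO, against 3.96 in WT. Slc12a7, of the same kind, averaged 1.96 RPKM in PU.1_KI and 2.15 in miR-155_KO, against 1.49 in WT. Both were called higher in miR-155_KO against WT (0.46 and 0.41). The sodium-potassium-chloride cotransporter Slc12a2 averaged 3.67 RPKM in PU.1_KI and 3.82 in miR-155_KO, against 3.97 in WT, with no call. Among the kinases that control these cotransporters, Wnk1 averaged 54.8 RPKM in PU.1_KI and 81.0 in miR-155_KO, against 47.2 in WT (0.77, adjusted p = 5.15e-10). Stk39 averaged 1.53 RPKM in PU.1_KI and 2.63 in miR-155_KO, against 1.09 in WT (0.98, adjusted p = 6.09e-09). Oxsr1 was called lower, at 9.30 RPKM in PU.1_KI and 6.77 in miR-155_KO, against 8.84 in WT (-0.36, adjusted p = 3.67e-05). Of the 7 tested genes in the ion pump and kinase list, 2 were called higher and 3 lower in miR-155_KO against WT, and 2 and 2 in PU.1_KI against WT.

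Mitochondrial carriers of the Slc25 family formed the largest class, with 32 members. In PU.1_KI against WT, 10 were called higher and 1 lower, beside 23.7% and 4.03% of all tested rows. With median-of-ratios scaling 7 were higher and 7 lower, beside 17.4% and 15.8%, so the direction of the class depended on the scaling. In miR-155_KO against WT, 8 were called higher and 10 lower, with a median of 0.00 (13 and 9 with that scaling). For miR-155_KO against PU.1_KI the counts were 5 higher and 15 lower (11 and 11). Slc25a23, a calcium-regulated carrier of ATP-Mg and phosphate (chromosome 17 from 57183134 to 57199286 on the minus strand), was measured at 2.89, 3.31, 3.65, 3.57 and 3.50 RPKM in the PU.1_KI libraries and 6.004, 5.53, 6.40, 6.17 and 5.16 in the miR-155_KO libraries. WT libraries had 2.36, 2.86, 2.91 and 3.11 RPKM. All miR-155_KO libraries were above all others, and PU.1_KI overlapped WT. The log2 fold changes were 0.94 ± 0.08 against WT and 0.71 ± 0.07 against PU.1_KI (adjusted p = 4.22e-09 and 1.16e-07). In PU.1_KI against WT its call (0.23, adjusted p = 0.0307) was lost without PU.1_KI_3, PU.1_KI_4, PU.1_KI_5, WT_1 or WT_2 (adjusted p between 0.0525 and 0.142) and with median-of-ratios scaling (0.102). Its relative Slc25a24 averaged 1.59 RPKM in PU.1_KI and 1.98 in miR-155_KO, against 1.36 in WT, and was called higher in miR-155_KO against WT (0.42). Slc25a25, another relative, averaged 3.35 RPKM in PU.1_KI and 3.15 in miR-155_KO, against 3.42 in WT, and was not called (-0.10).

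The glutamate carrier Slc25a22 and the ornithine carrier Slc25a15 were among the lower calls of miR-155_KO. Slc25a22 averaged 7.84 ± 0.693 RPKM in PU.1_KI and 4.69 ± 0.581 in miR-155_KO, against 7.81 ± 0.751 in WT (-0.68 ± 0.08 in miR-155_KO against WT, adjusted p = 6.91e-07). Slc25a15 averaged 7.38 ± 0.479 RPKM in PU.1_KI and 5.09 ± 0.415 in miR-155_KO, against 7.87 ± 0.436 in WT (-0.58 ± 0.06, adjusted p = 1.91e-07). Neither was called in PU.1_KI against WT (0.01 and -0.09). The aspartate-glutamate carrier Slc25a12 averaged 7.70 RPKM in PU.1_KI and 6.37 in miR-155_KO, against 6.52 in WT, called higher in PU.1_KI against WT (0.22, adjusted p = 0.00845) and not called in miR-155_KO against WT (-0.03, adjusted p = 0.669). Slc25a13, the other of that kind, averaged 7.33 RPKM in PU.1_KI and 5.12 in miR-155_KO, against 5.83 in WT. It was called higher in PU.1_KI against WT (0.31 ± 0.08, adjusted p = 0.00536) and lower in miR-155_KO against WT (-0.18 ± 0.08, adjusted p = 0.0489). The second call was lost without any of the 4 WT libraries or of miR-155_KO_1 to miR-155_KO_4 (adjusted p between 0.0539 and 0.136), and the groups overlapped. The S-adenosylmethionine carrier Slc25a26, just inside the threshold on level, averaged 1.31 ± 0.188 RPKM in PU.1_KI and 0.907 ± 0.0830 in miR-155_KO, against 1.55 ± 0.111 in WT (-0.55 ± 0.08 in miR-155_KO against WT, adjusted p = 5.49e-06). The ADP/ATP carriers Slc25a5 and Slc25a4 were called lower in miR-155_KO against WT (-0.23 and -0.26). The citrate carrier Slc25a1 was called higher in PU.1_KI against WT (0.30, at 42.1 RPKM in PU.1_KI and 36.3 in miR-155_KO, against 34.1 in WT). The mitoferrin Slc25a37, an iron carrier, averaged 6.49 RPKM in PU.1_KI and 6.504 in miR-155_KO, against 6.44 in WT, with no call. Among the 3 members that are not carriers, Slc7a6os averaged 11.1 RPKM in PU.1_KI and 8.46 in miR-155_KO, against 11.04 in WT, and was called lower in miR-155_KO against WT (-0.37), the single call against WT among them.

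**Figure D4:**
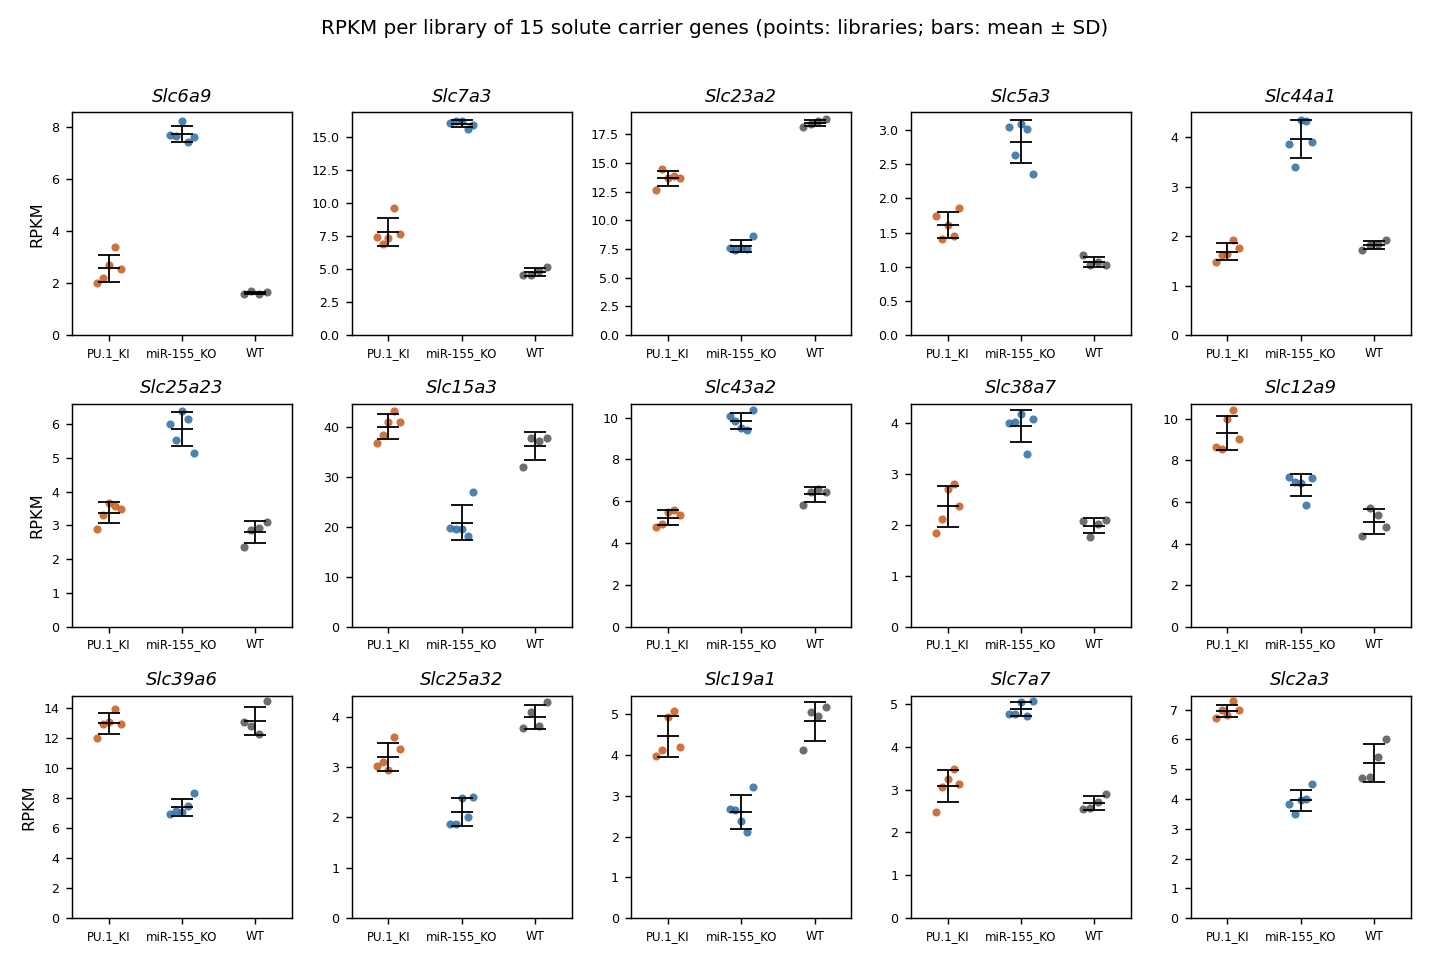
RPKM in each library (points) with mean ± SD (bars) for the 15 solute carrier genes with the largest called changes, with PU.1_KI (n = 5), miR-155_KO (n = 5) and WT (n = 4) from left to right. In each of the 15 the miR-155_KO libraries do not overlap the WT libraries; Slc12a9, Slc2a3 and Slc15a3 have their highest means in PU.1_KI, at 9.32, 6.96 and 39.99 RPKM.

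In 5 members the mutants were called in opposite directions against WT: Slc43a2 and Slc23a1 higher in miR-155_KO and lower in PU.1_KI, and Slc2a3, Slc6a6 and Slc25a13 lower in miR-155_KO and higher in PU.1_KI. Members chosen for opposite calls differ between the mutants by that choice, so the differences are a description. For miR-155_KO against PU.1_KI the log2 fold changes were 0.86 ± 0.05, 0.66 ± 0.07, -0.75 ± 0.07, -0.72 ± 0.06 and -0.49 ± 0.07 in that order. Of these, Slc43a2 and Slc2a3 kept both calls against WT in every alternative that tested them, and the other 3 lost a call against WT as given above.

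As PU.1 binds purine-rich sequences around GGAA, the letters GAGGAAG were searched on both strands of the members' promoters, from 250 bases before to 50 bases after the start (RefSeq, GRCm38.p6). Of 96 member genes with a promoter in that set, 12 held the letters (12.5%), beside 4152 of 27025 genes in all (15.4%). Among the members called higher in PU.1_KI against WT 5 of 31 did (16.1%), beside 7 of 65 of the other members (10.8%). The windows of the 5 follow, with the match in capitals, which reads CTTCCTC where it lies on the other strand.
Slc6a9, chr4:117835017-117835023, plus strand: ggacatctgCTTCCTCcaagtgtcccaac
Slc31a1, chr4:62360452-62360458, plus strand: gGAGGAAGttggatgttcccagggcctgt
Slc25a23, chr17:57060099-57060105, minus strand: ccgttagaGAGGAAGgtgtaaatgaacaa
Slc25a45, chr19:5877702-5877708, plus strand: aggtccaagaaGAGGAAGcaatgccggca
Slc5a3, chr16:92058365-92058371, plus strand: tcctctctcgtCTTCCTC
The share among members higher in PU.1_KI lay near that of all genes, and a match is a description of the letters only. Slc12a9, Slc30a4 and Slc31a2, the members with the largest higher calls in PU.1_KI against WT, have a promoter in the set and do not hold the letters there.

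Genes outside the rule that fold, feed or act beside the carriers were read from the same fit. Of 83 genes listed, 62 rows were tested. In PU.1_KI against WT 17 were called higher and 5 lower (median 0.09), beside 23.7% and 4.03% of all tested rows. In miR-155_KO against WT 19 were called higher and 30 lower (median -0.11), beside 27.2% and 35.3%. In miR-155_KO against PU.1_KI 15 were called higher and 29 lower (median -0.17), beside 17.9% and 46.4%. The other family of small-molecule transporters, the ATP-driven ABC proteins, had 5 of 16 tested called, all higher, in PU.1_KI against WT, and 9 higher and 2 lower in miR-155_KO against WT. Abca7, a lipid transporter, averaged 12.2 RPKM in PU.1_KI and 15.6 in miR-155_KO, against 9.08 in WT (0.41 in PU.1_KI and 0.76 in miR-155_KO against WT, adjusted p = 0.000705 and 1.22e-07). Of the mitochondrial carrier proteins that do not bear the Slc name, Ucp2 averaged 92.8 RPKM in PU.1_KI and 81.0 in miR-155_KO, against 84.9 in WT, with no call, and 2 of 3 tested were called lower in miR-155_KO against WT. Ezr, ezrin, which the scaffold Slc9a3r1 ties to membrane proteins, averaged 31.5 RPKM in PU.1_KI and 18.8 in miR-155_KO, against 30.8 in WT (-0.70 in miR-155_KO against WT, adjusted p = 1.19e-07).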

How the data were processed

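Polyadenylated RNA of 14 libraries was deposited by the authors as 1 table of RPKM values, 1 row a gene. Trim Galore, TopHat and the build NCBIM37 were used, per the submitters' processing notes, without versions. Read counter, annotation and strand setting: not given in the sources used here. All 14 columns were matched to libraries by name, and none were identical. Values were tested as log2(RPKM + 0.5), without rescaling, with limma 3.58.1 in R 4.3.3 (1 mean per genotype, empirical Bayes with an intensity trend, two-sided). Rows tested had at least 1 RPKM in at least 4 libraries, with Benjamini-Hochberg adjustment over 9627 rows. The fit was tried on simulated data. Of 50 genes changed 1.2-fold, it called 11 in PU.1_KI against WT, 26 in miR-155_KO against WT and 17 in miR-155_KO against PU.1_KI. Of 50 changed 1.5-fold it called 47, 49 and 48. A gene without a call may therefore have changed by a small amount. No count model was run. Depth came from the RPKM steps of the 250 lowest values among genes spanning under 2500 bp, of which 67.2% to 72.8% came out within 0.01 of whole reads, so it is approximate. The design calls the replicates biological; index sequences recur among libraries, and the sources used here do not say which shared a pool, so pool and genotype cannot be told apart.

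Members, substrate classes and gene lists were chosen with earlier results of these data known. Named were the 10 members with the largest called change per comparison, the 2 highest per class, those called in opposite directions in the mutants and those at the threshold; listed partners were named with a called change of 1.5-fold or where they act with a member described. Other members and Oxsr1, Hprt and Ucp2 were named after their values were seen. Library values are given for the 15 members with the largest called change. Positions are those of the table. The microRNA and promoter sequences are RefSeq's (GRCm38.p6), with promoters matched by symbol or synonym for 96 of 127 genes. Those of 3' UTRs are GENCODE M21's (GRCm38), matched by Ensembl gene identifier. Spans of 22 members overlap another gene. Alternatives were other pseudocounts, filters and scalings, the compared genotypes alone, a replicate block and leaving out each library; counting without Slc43a1 was added after the data were seen. Other steps ran in Python 3.11.15 with pandas 2.3.3, numpy 2.4.6 and, for figures, matplotlib 3.10.9.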

Additional observations from a re-analysis of the deposited data

Results flagged for a closer look

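In 19 of 129 groups of libraries of the named members, 1 library stood apart from the rest of its genotype by Dixon's criterion. For a single group, chance alone gives about 1 in 20. The groups are genes measured in the same 14 libraries and are not independent, so the 19 cannot be tested against that rate. The library was miR-155_KO_5, the lowest of its genotype on the first principal component, for Slc15a3 at 26.9 RPKM, Slc16a1 at 9.73, Slc17a9 at 11.4, Slc19a2 at 6.39, Slc23a2 at 8.65, Slc25a13 at 6.53, Slc25a5 at 210.9, Slc37a4 at 1.74 and Slc43a3 at 40.9. It was miR-155_KO_4 for Slc12a9 at 5.88 and Slc38a7 at 3.39, WT_1 for Slc15a3 at 31.97, Slc2a6 at 51.6, Slc38a10 at 11.9 and Slc50a1 at 22.02, WT_2 for Slc4a7 at 21.3, WT_4 for Slc43a3 at 35.3, PU.1_KI_1 for Slc31a2 at 30.9 and PU.1_KI_4 for Slc7a3 at 9.59 RPKM. Of these, the calls in miR-155_KO against WT of Slc15a3, Slc16a1, Slc17a9 and Slc23a2 held without miR-155_KO_5.

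Of the 76 members called in miR-155_KO against PU.1_KI, the 5 whose calls against WT went in opposite directions are given here. Their log2 fold changes between the mutants, which that choice makes large, were 0.86 for Slc43a2, 0.66 for Slc23a1, -0.49 for Slc25a13, -0.72 for Slc6a6 and -0.75 for Slc2a3.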

How the results depend on the processing

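Among the named members' values under alternatives, 2095 kept a call in the same direction or stayed uncalled, 60 lost a call, 41 gained one and 4 reversed. Direction was compared only where a call was made, so values uncalled in both settings may have changed sign. Under every alternative that tested them, 29 of 42 called members kept their call in PU.1_KI against WT, 58 of 73 in miR-155_KO against WT and 54 of 76 in miR-155_KO against PU.1_KI. The 5 members lower in PU.1_KI against WT became 20 with median-of-ratios scaling, 18 with quantile normalization, and 3 with either no filter or a 5 RPKM filter. The share of all tested rows called lower there went from 4.03% to 15.8% and 15.9% with those scalings. It was 3.14% with no filter and 3.78% with the 5 RPKM filter. The 29 higher in miR-155_KO against PU.1_KI became 49 and 44 with those scalings and 11 with the 5 RPKM filter, which kept 73 members. Over all tested rows the higher share there went from 17.9% to 31.5% and 29.4% with those scalings and 13.6% with that filter. That filter turned the 45 of 128 members higher in miR-155_KO against WT into 22 of 73, beside 27.2% and 23% of all rows tested. The members' median log2 fold change there was -0.003 with it, beside 0.07 with the main filter. Leaving out 1 library gave 29 to 47 higher and 3 to 6 lower in PU.1_KI against WT, 38 to 45 and 23 to 32 in miR-155_KO against WT, and 22 to 30 and 43 to 56 in miR-155_KO against PU.1_KI. Without miR-155_KO_5 the last was 30 and 56, and without WT_1 the first was 29 and 3; without PU.1_KI_2 the lower count was 3 too. Reversed between miR-155_KO and PU.1_KI were Slc30a4 at 0.0052 (log2) and Slc44a2 at 0.11 with quantile normalization, and Slc9a7 at 0.13 with median-of-ratios scaling and 0.14 with quantile normalization; these comparisons move with the median of all rows. Departures of same-numbered libraries from the means of their genotypes correlated between -0.387 and 0.466 (median 0.106, 13 pairs). Those of differently numbered libraries correlated between -0.558 and 0.568 (median -0.00966, 52 pairs). These ranges overlap and the pairs share libraries, so whether the numbers pair the libraries cannot be told from them. With the replicate block the counts were 37 higher and 6 lower, 47 and 31, and 28 and 52. RPKM carry no counts, so depth limits are approximate.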
